A study of Homo sapiens with 4 samples.

Results

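The mitochondrial ribosomal protein genes are the nuclear genes for the protein subunits of the ribosome inside mitochondria. Members were chosen by symbol alone, as genes named MRPL (large subunit) or MRPS (small subunit) with a number and at most 1 letter A, B or C, so pseudogenes with a P suffix were left out. The table of 24940 genes held 78 of them, 49 with a large-subunit symbol and 29 with a small-subunit symbol.

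RNA was sequenced in 1 library per group from MOLM-13, a human cell line grown from acute myeloid leukaemia that has a KMT2A fusion. All cells had been infected with lentivirus, selected with puromycin or G418 and given doxycycline, and they differed in the hairpins they carried. The shControl library had a negative control hairpin, sh-Bcl2 a hairpin against the anti-apoptotic gene BCL2, sh-c-Myc a hairpin against the transcription factor gene MYC, and the double knockdown both hairpins. The sources used here do not give how many hairpins were tried per gene, whether cells were clones or pools, or which of both selection drugs a library had. The question the study asked was how double knockdown compares with either single knockdown, with mitochondria as its interest.

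Mitochondrial ribosomes translate only the few proteins that mitochondrial DNA encodes, all of them core subunits of the respiratory chain and of ATP synthase. Their ribosomal RNAs come from mitochondrial DNA, while every protein subunit is made in the cytosol from nuclear genes and imported. Some subunits have a counterpart in bacterial ribosomes and others are found only in mitochondria. MYC is a known driver of genes for ribosome production, and in acute myeloid leukaemia mitochondrial translation and BCL2 are both studied as drug targets.

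Levels are given for shControl, sh-Bcl2, sh-c-Myc and the double knockdown, in that order throughout. CPM is the count scaled to a common library size with TMM, a correction for library composition, and FPKM is the deposited value per length of gene. Ratios are log2 ratios of TMM-scaled counts. Brackets hold exact 95% intervals that cover counting error only. With 1 library per group the spread between cultures was not measured, no ratio has a replicate check, and a gene was called lower or higher by size. It had to reach 1 CPM in any library, differ by 2-fold or more, and have an interval without 1 in it. That CPM filter was passed by 13646 genes and by 77 of the 78 members; MRPS24, with 3, 4, 1 and 4 counts, did not pass.

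The libraries held 14421558 to 15691129 counts. The targeted transcripts stood at 434, 364, 278 and 302 CPM for MYC and at 119.7, 38.7, 112 and 44.5 CPM for BCL2, so MYC RNA was below shControl in all knockdown libraries and did not reach a 2-fold difference in any of them. The 10 myeloid leukaemia markers examined (CD33, SPI1, FLT3 and others) all had counts in all libraries. T cell markers were not analysed here. The 3 B cell genes, 3 erythroid genes and 2 megakaryocyte genes of the marker lists that were in the table each summed to at most 1.77 CPM per library.

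Promoter stretches of 5 members are shown because the motif counts given last turn on such letters: 3 genes that were called lower with the c-Myc hairpin (MRPL22, MRPL3, MRPL58) and 2 that hold a motif of the same kind and were not (MRPS18C, MRPS22). Each is the longest unbroken run, within the 250 bases before the RefSeq start, that lies in no annotated exon. It is shown on the strand of the gene, 5′ to 3′ (RefSeq, GRCh38.p14). Capitals mark a match to the E-box CACGTG, bound by MYC with MAX, or to the ETS-family motif CCGGAAG, on either strand. The YY1 motif AAGATGGC, searched likewise, is in none of these stretches. The motif counts use longer windows, in which MRPL22 also has a YY1 motif, MRPS18C also an ETS motif and MRPS22 3 ETS motifs.
MRPL22, E-box, chr5:154940823-154941069, plus strand: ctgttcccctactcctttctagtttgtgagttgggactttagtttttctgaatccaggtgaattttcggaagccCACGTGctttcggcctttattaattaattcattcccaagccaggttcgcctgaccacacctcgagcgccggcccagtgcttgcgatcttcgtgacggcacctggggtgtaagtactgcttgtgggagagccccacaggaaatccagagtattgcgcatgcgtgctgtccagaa
MRPS18C, E-box, chr4:83455857-83455931, plus strand: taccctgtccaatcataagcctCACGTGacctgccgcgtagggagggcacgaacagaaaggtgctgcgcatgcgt
MRPL3, ETS motif, chr3:131502984-131503221, minus strand: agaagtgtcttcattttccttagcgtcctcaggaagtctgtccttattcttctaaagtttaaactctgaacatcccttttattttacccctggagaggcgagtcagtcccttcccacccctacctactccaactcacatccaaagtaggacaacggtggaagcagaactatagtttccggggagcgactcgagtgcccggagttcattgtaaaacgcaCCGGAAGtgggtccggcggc
MRPL58, 2 ETS motifs, chr17:75012420-75012669, plus strand: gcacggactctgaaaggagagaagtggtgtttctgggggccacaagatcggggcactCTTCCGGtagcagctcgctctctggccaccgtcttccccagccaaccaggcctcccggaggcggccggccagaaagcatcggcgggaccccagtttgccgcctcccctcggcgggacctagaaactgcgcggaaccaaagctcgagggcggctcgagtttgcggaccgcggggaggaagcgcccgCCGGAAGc
MRPS22, 2 ETS motifs, chr3:139343744-139343955, plus strand: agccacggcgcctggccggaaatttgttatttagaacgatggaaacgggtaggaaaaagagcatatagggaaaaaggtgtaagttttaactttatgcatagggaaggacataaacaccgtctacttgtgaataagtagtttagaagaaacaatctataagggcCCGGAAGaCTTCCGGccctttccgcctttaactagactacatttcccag
Counted back from the start, the E-box spans bases 176 to 171 in MRPL22 and bases 179 to 174 in MRPS18C. The ETS motif of MRPL3 spans bases 32 to 26, those of MRPL58 bases 193 to 187 and 8 to 2, and those of MRPS22 bases 87 to 81 and 79 to 73.

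In control cells the members spanned a wide range of RNA per gene length. The median was 15.2 FPKM, with MRPL18 highest at 80.3 FPKM and MRPS24 lowest at 0.0774 FPKM. MRPL18, a subunit that also takes part in importing 5S ribosomal RNA, stood at 80.3, 72.3, 51.5 and 57.8 FPKM. MRPS34, a mitochondria-specific small subunit protein, stood at 74.3, 48.5, 31.5 and 35.01 FPKM. In both genes the shControl level was the highest and the sh-c-Myc level the lowest of the libraries. MRPL14 (64.00, 46.6, 29.7 and 31.97 FPKM), MRPL15 (59.8, 58.9, 42.2 and 54.1 FPKM) and MRPS12 (53.3, 43.01, 22.96 and 27.5 FPKM), all with bacterial counterparts, completed the 5 highest. The order of the members by FPKM was much the same in every library: over 78 genes its Spearman correlation with shControl, which these comparisons share, was 0.974 for sh-Bcl2, 0.933 for sh-c-Myc and 0.948 for both hairpins.

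**Figure D1:**
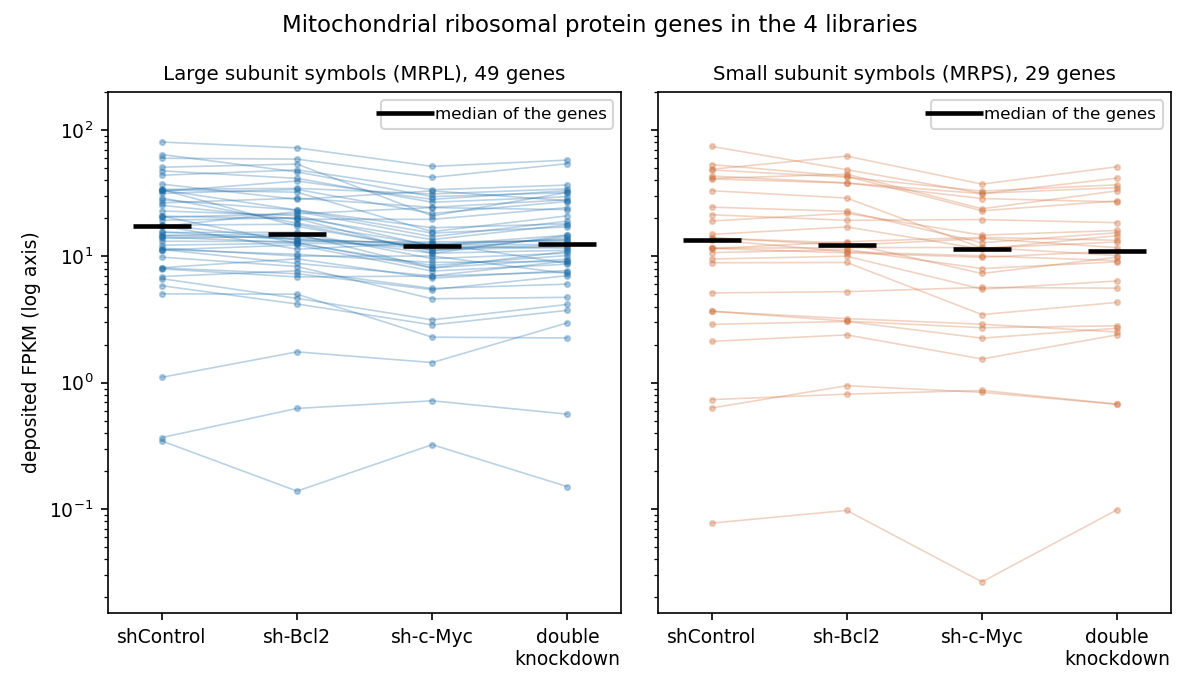
Deposited FPKM (log axis) of 49 large-subunit and 29 small-subunit genes in each of the 4 libraries; each thin line is 1 gene and each black bar the median. Medians over all 78 genes, from left to right, were 15.2, 13.8, 11.5 and 12.1.

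At the low end, 5 members stood under 1 FPKM in shControl, and 9 of the 10 lowest share exonic bases with another gene of the GENCODE 29 annotation. MRPS18C, a small-subunit protein, stood at 0.735, 0.812, 0.869 and 0.676 FPKM, and 40.2% of its exonic bases lie in another gene. MRPS28 stood at 0.631, 0.947, 0.84 and 0.675 FPKM with 35.8% shared. MRPL38 stood at 0.368, 0.626, 0.719 and 0.564 FPKM with 41.1% shared. MRPL38 was lowest in shControl, on 20, 36, 38 and 32 counts, with a log2 ratio of 0.77 [-0.04 to 1.64] in sh-c-Myc. MRPL46 stood at 0.346, 0.139, 0.323 and 0.151 FPKM with 11.3% shared, and MRPS24 at 0.0774, 0.0976, 0.0265 and 0.0988 FPKM with 23.2% shared. Of the 78 members, 41 share some exonic bases with another gene. The 14 that share at least 20% had a median of 7.46 FPKM in shControl, against 21.4 FPKM in the 37 that share none. The sources used here do not give how the counting treated such bases, and the part of shared exons in these low levels was not tested.

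**Figure D2:**
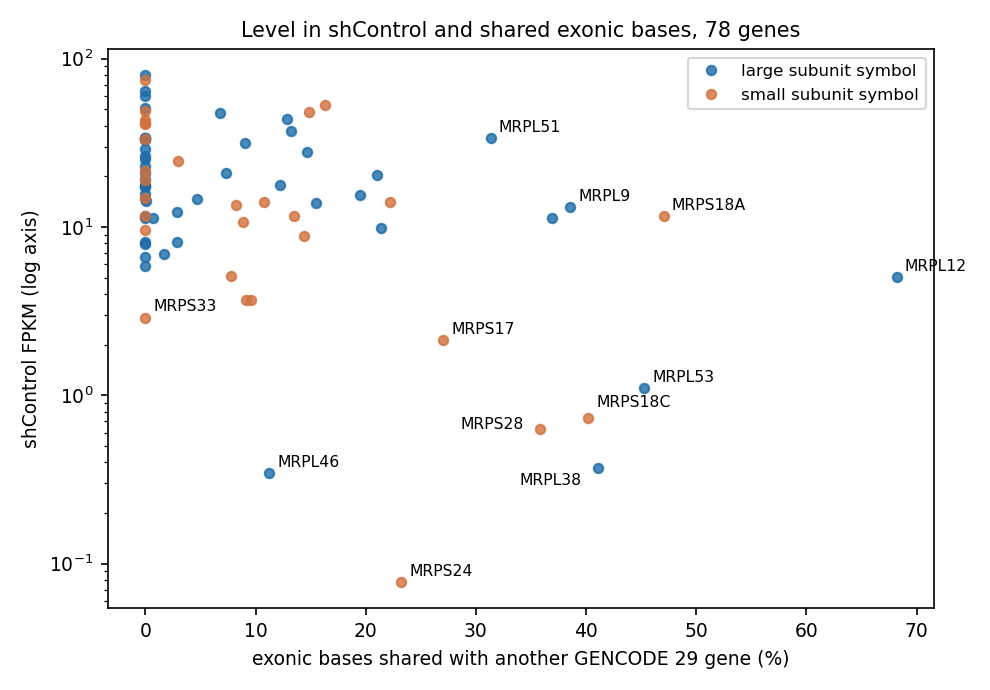
Level of each of the 78 genes in shControl (FPKM, log axis) against the percent of its exonic bases that lie in another GENCODE 29 gene; blue points are large-subunit and orange points small-subunit symbols. Genes under 1 FPKM, such as MRPS24 at 0.0774, all share exonic bases with another gene.

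The c-Myc hairpin alone came with lower RNA of most members. Their summed share of all counts was 0.389%, 0.364%, 0.260% and 0.292% in the same order of libraries, and in bulk RNA fewer cells of a type and less RNA per cell cannot be told apart. In sh-c-Myc against shControl 71 of the 77 tested members had a ratio below 1, 67 of them with an interval that excluded 1, and 0 were above 1 by that rule (37.3% of all genes tested were lower and 33% higher). The 2-fold rule called 21 lower and 0 higher, while it called 9.85% of all genes tested lower and 12.5% higher. The median log2 ratio was -0.64 for the members and -0.02 for all genes tested. This ratio ran with shControl FPKM, with a Spearman correlation of -0.44 over 13607 genes tested and -0.38 over the 77 members. Genes with a count numbered 19450 in shControl and 21426 in sh-c-Myc. With a minimum mean of 50 counts, the median of the members minus that of all genes was -0.59, against -0.62. A comparison with genes of like level was not made. The lowest value of the 4 libraries fell in sh-c-Myc for 63 of the 77 members, against 35.3% of all genes tested. With scaling by total counts the median of all genes moved up by 0.19, the median of the members was -0.46, 69 of 77 were still below 1, and 13 were called lower. Of all 13646 genes tested 912 were then called lower and 2181 higher, against 1344 and 1708 with TMM. Higher calls were thus 70.5% of the calls, against 56.0% with TMM.

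**Figure D3:**
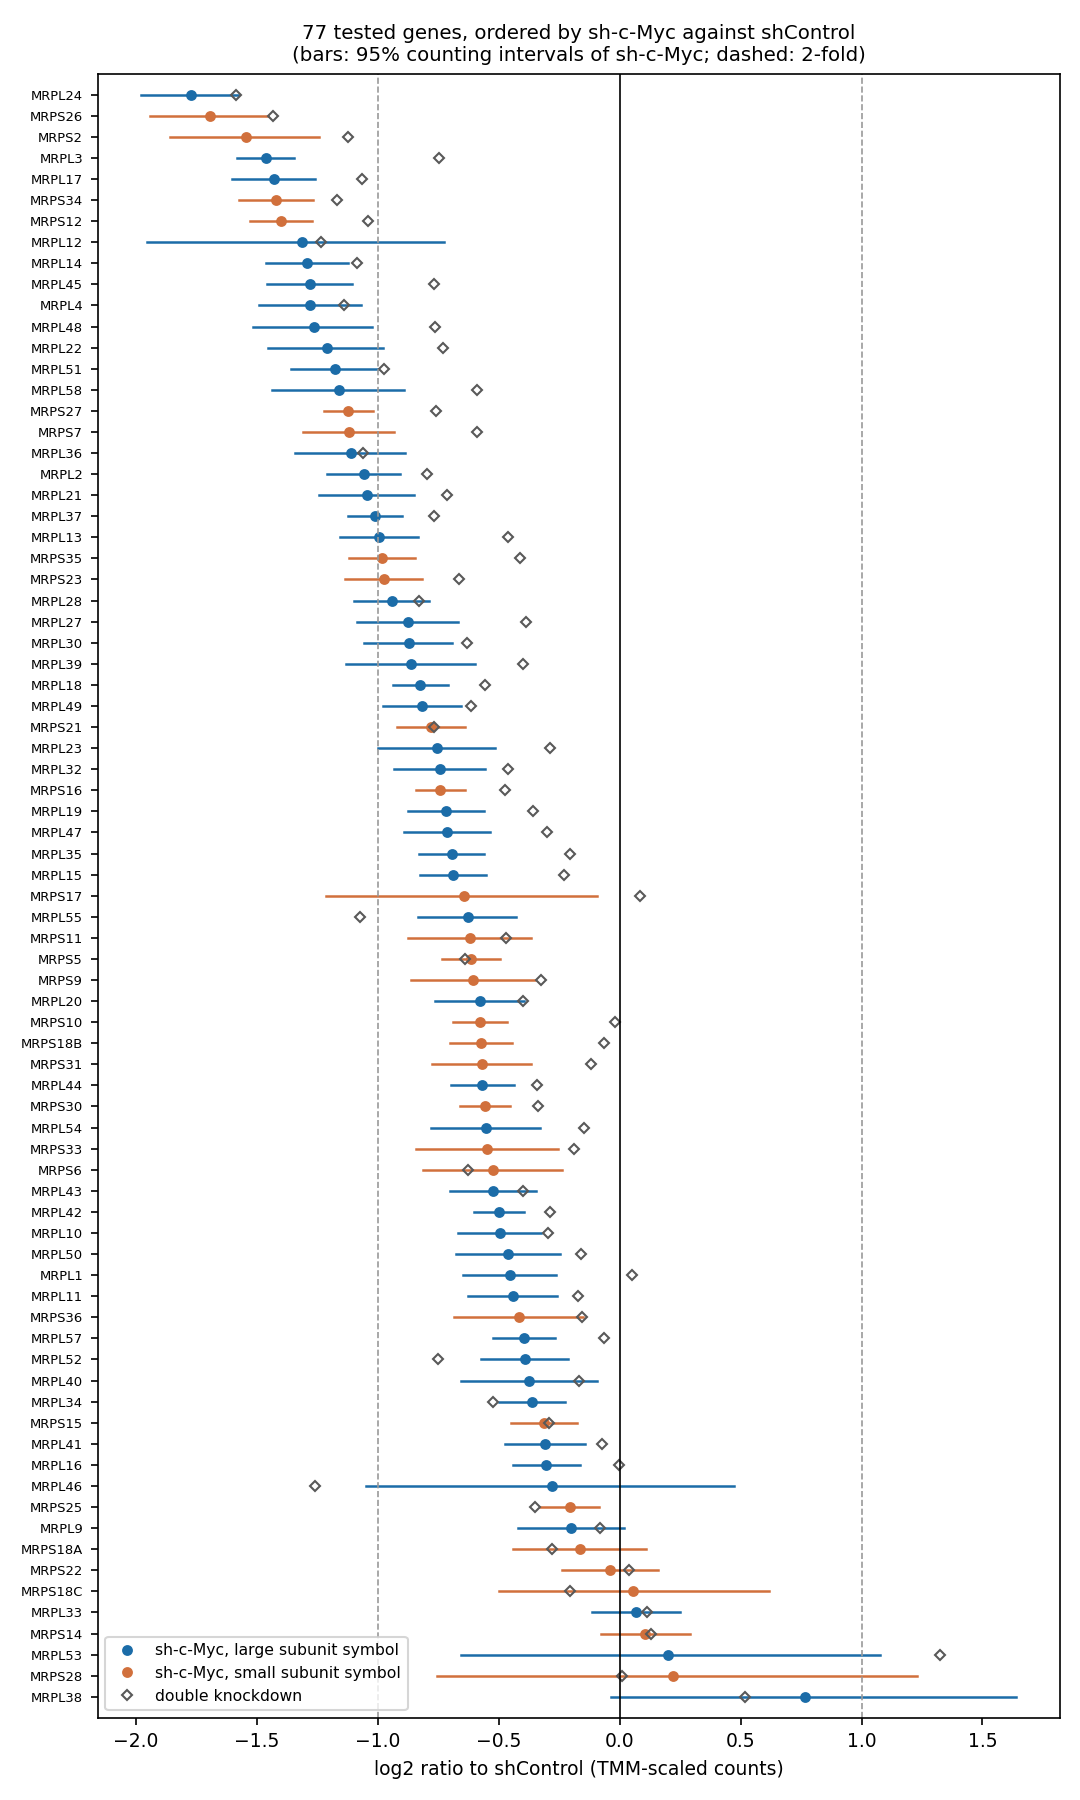
Log2 ratio to shControl of the 77 tested genes in sh-c-Myc (filled circles, bars are 95% counting intervals; blue for large and orange for small subunit symbols) and in the double knockdown (open diamonds), ordered by sh-c-Myc. The median of the circles is -0.64 and that of the diamonds -0.40, and the dashed lines mark 2-fold.

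Among large-subunit proteins with a bacterial counterpart, 10 of 30 were called lower in sh-c-Myc, with a median log2 ratio of -0.79. MRPL24 (ENSG00000143314, chromosome 1, 156737303 to 156741590 on GRCh38, minus strand), an assembly-initiating protein in bacterial ribosomes, stood at 60.2, 30.4, 17.6 and 20.02 CPM. All of the knockdown libraries were below shControl, and sh-c-Myc was lowest, 3.42-fold [2.99 to 3.94] below it. MRPL3 (chromosome 3, 131462212 to 131502983), which lies near the peptidyl transferase centre, stood at 145, 151, 52.6 and 86.4 CPM, high in shControl and sh-Bcl2 and 2.76-fold [2.54 to 2.995] lower in sh-c-Myc. MRPL17 stood at 69.5, 43.3, 25.8 and 33.2 CPM and was 2.69-fold [2.397 to 3.03] lower in sh-c-Myc. MRPL14, at the face that meets the small subunit, stood at 64.6, 46.3, 26.4 and 30.4 CPM and was 2.45-fold [2.18 to 2.76] lower.

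MRPL4, which lines the exit tunnel for the new peptide, stood at 42.2, 35.1, 17.4 and 19.1 CPM, with the 2 libraries that carry the c-Myc hairpin lowest, and was 2.43-fold [2.101 to 2.82] lower in sh-c-Myc. MRPL22, another protein of the tunnel wall, whose E-box is printed above, stood at 32.4, 22.9, 13.98 and 19.5 CPM and was 2.32-fold [1.97 to 2.74] lower. MRPL23, at the tunnel exit, stood at 25.3, 22.5, 15.01 and 20.7 CPM on 357, 340, 234 and 324 counts and was not called, at -0.75. MRPL12, the stalk protein that recruits translation factors and also binds the mitochondrial RNA polymerase, stood at only 5.47, 5.35, 2.18 and 2.303 CPM and was 2.48-fold [1.65 to 3.87] lower; 68.2% of its exonic bases lie in another gene, and its interval is wide. The partners of MRPL12 in the stalk region were less far from shControl, with log2 ratios of -0.50 [-0.67 to -0.33] for MRPL10 and -0.44 [-0.63 to -0.26] for MRPL11. MRPL36, MRPL2 and MRPL21 completed the 10, at log2 ratios of -1.11, -1.06 and -1.04. MRPL13, 1.99-fold [1.79 to 2.23] lower, was the member just short of the 2-fold line.

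Among large-subunit proteins found only in mitochondria, 5 of 21 were called lower, with a median of -0.52. MRPL45, which anchors the ribosome at the inner membrane by the tunnel exit, stood at 60.2, 56.9, 24.8 and 35.4 CPM and was 2.43-fold [2.15 to 2.75] lower in sh-c-Myc. MRPL58, a peptidyl-tRNA hydrolase built into the ribosome, stood at 24.3, 22.9, 10.8 and 16.1 CPM and was 2.24-fold [1.86 to 2.71] lower. MRPL48 stood at 30.7, 21.1, 12.8 and 18.1 CPM and MRPL51 at 54.7, 37.4, 24.2 and 27.8 CPM, with log2 ratios of -1.27 and -1.18. In these 4 genes the double knockdown lay between sh-c-Myc and shControl. MRPL37, at 127, 109.5, 63.2 and 74.9 CPM, was the member just past the 2-fold line with a log2 ratio of -1.01 [-1.12 to -0.90].

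Symbols do not always give the place: MRPS30 and MRPS18A are proteins of the large subunit and are counted there in the structural groups, and MRPS36 is in neither group. Of small-subunit symbols 6 of 28 tested members were called lower, with a median of -0.59, against 15 of 49 and a median of -0.72 for large-subunit symbols; the difference between subunits was not tested. MRPS26 (ENSG00000125901, chromosome 20, 3045945 to 3048254 on GRCh38, plus strand), a protein found only in mitochondria, stood at 39.3, 33.8, 12.1 and 14.5 CPM. Its 2 libraries with the c-Myc hairpin lay well below the other 2, and sh-c-Myc was 3.23-fold [2.74 to 3.84] below shControl. MRPS2 stood at 23.1, 22.9, 7.89 and 10.6 CPM, nearly equal in shControl and sh-Bcl2, and was 2.92-fold [2.37 to 3.63] lower in sh-c-Myc. MRPS12, a protein of the decoding centre, stood at 120.3, 95.6, 45.5 and 58.4 CPM and was 2.64-fold [2.42 to 2.89] lower.

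MRPS34, needed for the stability of the small subunit, stood at 85.7, 55.2, 32.00 and 38.1 CPM and was 2.68-fold [2.41 to 2.98] lower in sh-c-Myc. MRPS27, which has pentatricopeptide repeats that bind RNA, stood at 168, 153, 77.2 and 99.3 CPM and was 2.18-fold [2.03 to 2.33] lower. MRPS7, which binds the head of the small ribosomal RNA, stood at 48.9, 43.9, 22.5 and 32.5 CPM and was 2.17-fold [1.91 to 2.48] lower. By structural group, 3 of 15 tested small-subunit proteins with a bacterial counterpart (median -0.61) and 3 of 10 found only in mitochondria (median -0.77) were called.

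The genes that were not lower formed a short list. MRPL33, MRPS14, MRPS18C, MRPL53, MRPS28 and MRPL38 had ratios above 1 in sh-c-Myc, each with an interval that included 1. MRPS14 stood at 31.5, 35.1, 33.9 and 34.5 CPM and MRPL33 at 33.1, 34.7, 34.6 and 35.8 CPM, so both were level across libraries at a depth of at least 444 counts. MRPS22, a small-subunit protein found only in mitochondria, was as level, at 29.1, 29.3, 28.3 and 29.9 CPM and -0.04 [-0.24 to 0.16]. The other 4 had at most 62 counts in any library. All of MRPL33, MRPS14, MRPS22, MRPS18C, MRPL53, MRPS28 and MRPL38 share exonic bases with another gene, as do 41 of all 78 members. The share is 7.8% in MRPS22 and 13.5% in MRPS14. Over the 13 tested members that share at least 20% of their exonic bases the median log2 ratio was -0.20, with 3 called lower, and over the 37 that share none it was -0.69, with 12 called lower.

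The paralogs MRPS18A, MRPS18B and MRPS18C, which occupy separate places in the ribosome, had different ratios. MRPS18B stood at 81.5, 74.5, 54.8 and 77.9 CPM, with a log2 ratio of -0.57 [-0.70 to -0.44] in sh-c-Myc. MRPS18A stood at 15.7, 15.6, 13.98 and 12.9 CPM, with -0.17 [-0.44 to 0.11]. MRPS18C, the least abundant of them by FPKM, stood at 3.76, 4.096, 3.91 and 3.26 CPM, with 0.06 [-0.50 to 0.62]. None of the 3 was called.

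A fit of the 2 by 2 layout gave each hairpin 1 term across all 4 libraries (edgeR quasi-likelihood, Benjamini-Hochberg adjustment over 12855 genes). It leaves 1 residual degree of freedom, in which non-additivity cannot be told apart from spread between libraries. For the c-Myc hairpin 40 of 77 members passed an adjusted p of 0.05 as lower and 0 as higher by edgeR, with 46 lower and 0 higher at an unadjusted p under 0.05. Of all 12855 genes fitted 15.9% were lower and 13% higher by adjusted p, and 2637 were lower and 2420 higher unadjusted. DESeq2, run on the same design, called 21 members lower and 0 higher (1239 and 826 of all genes). Unadjusted it gave 35 lower and 0 higher (1985 and 1478 of all genes). By limma-voom 40 members were lower and 0 higher (2069 and 1695 of all genes). The 40 called by edgeR were 28 of 49 with large-subunit and 12 of 28 with small-subunit symbols. They included all 21 genes called by the 2-fold rule in sh-c-Myc against shControl. The fit uses those same libraries, so this is no separate check of the calls. For these genes the edgeR adjusted p was 2.21e-06 for MRPS26, 5.21e-06 for MRPL3 and 6.81e-05 for MRPL24 at the small end. At the large end it was 0.0193 for MRPL12.

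The c-Myc hairpin can be read a second time in cells that also carry the Bcl-2 hairpin. This uses 2 libraries the first reading did not use. By the CPM given above, MYC RNA differed less between these 2 libraries than between sh-c-Myc and shControl. The readings are therefore not like for like, and the part of MYC level in the ratios below was not tested. In the double knockdown against sh-Bcl2 70 of 77 members had a ratio below 1, 49 with an interval that excluded 1 and 2 above it likewise (30.7% and 27.1% of all genes tested), and the median log2 ratio was -0.34 for the members and -0.01 for all genes. The 2-fold rule called 3 lower, MRPS26, MRPS2 and MRPL12, and 0 higher; 3.62% of all genes were lower and 5.22% higher. MRPS26 was 2.33-fold [1.99 to 2.74] lower, MRPS2 2.16-fold [1.79 to 2.62] and MRPL12 2.31-fold [1.55 to 3.54]. These 3 were called in both backgrounds, which is 3 of 21 called in sh-c-Myc and 3 of 3 called here; of all genes tested 298 were, which is 22.2% of 1344 and 60.3% of 494. Across the 77 members the 2 ratios had a Pearson correlation of 0.66 and a Spearman correlation of 0.66, and both lay below 1 in 66 (85.7%). Across all genes tested the Pearson correlation was 0.61, and both lay below 1 in 39.7%.

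**Figure D4:**
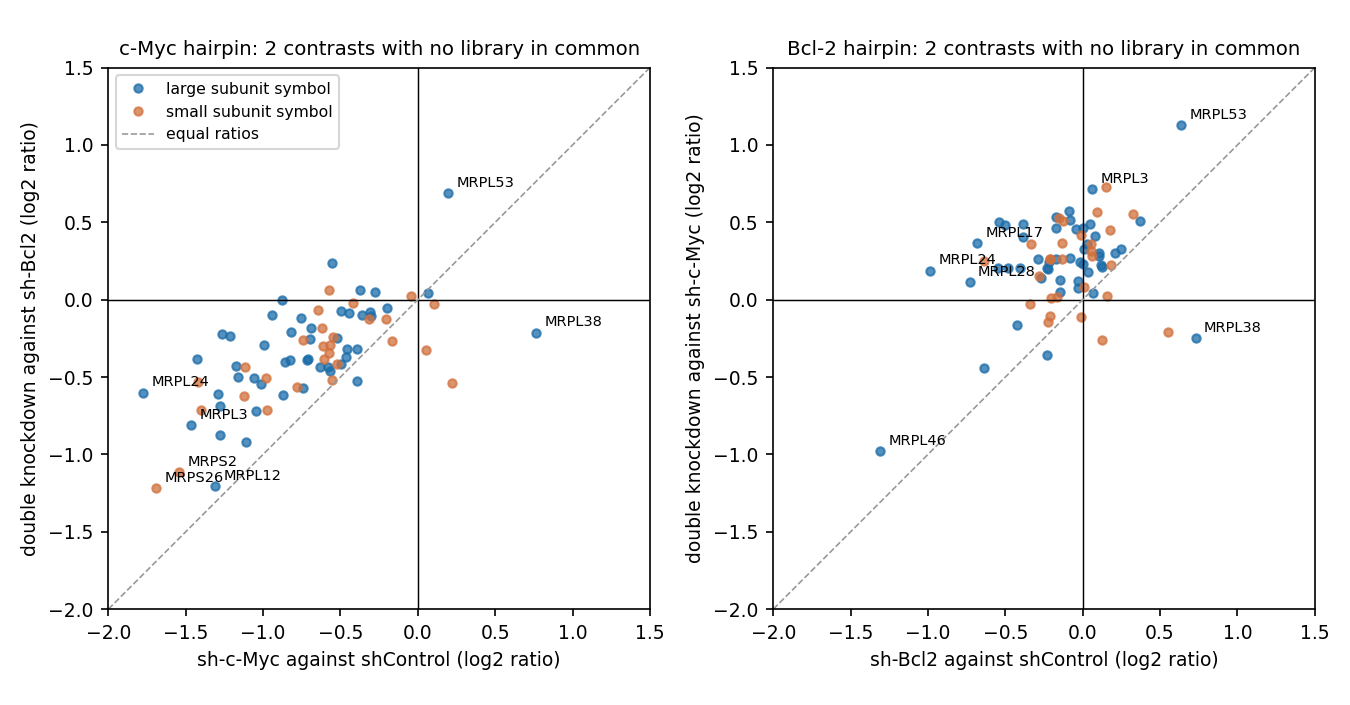
Log2 ratios of the 77 tested genes for the c-Myc hairpin without and with the Bcl-2 hairpin (left, Pearson correlation 0.66) and for the Bcl-2 hairpin without and with the c-Myc hairpin (right, 0.34); the 2 axes of a panel share no library, and the dashed line marks equal ratios. On the left 66 genes lie below 0 on both axes, and on the right 42 have opposite signs.

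The Bcl-2 hairpin alone came with little difference over the members as a whole. In sh-Bcl2 against shControl the median log2 ratio was -0.09 for the members and 0.00 for all genes, and 47 of 77 members were below 1. The 2-fold rule called 1 lower and 0 higher, against 2.16% and 2.45% of all genes tested. That gene was MRPL46, at 2.34, 0.925, 1.92 and 0.96 CPM, where the 2 libraries with the Bcl-2 hairpin were lowest on 14 and 15 counts. It was 2.48-fold [1.32 to 5.12] lower in sh-Bcl2, and with a minimum mean of 50 counts it was not tested. In the 2 by 2 fit 0 members passed for the Bcl-2 hairpin by edgeR (0.194% of all genes were lower and 0.101% higher). At an unadjusted p under 0.05 there were 3 lower and 3 higher (642 and 534 of the 12855 genes fitted). DESeq2 gave 0, with 1 lower and 1 higher unadjusted (209 and 198 of all genes). By limma-voom 0 passed, with 3 lower and 3 higher unadjusted (689 and 512 of all genes).

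Single members still stood apart in sh-Bcl2 beyond counting error. MRPL24, at 60.2, 30.4, 17.6 and 20.02 CPM, was just short of 2-fold lower, with a log2 ratio of -0.99 [-1.15 to -0.82]. MRPL28 stood at 66.6, 40.1, 34.6 and 37.5 CPM, nearly the same in all of the knockdown libraries, with -0.73 [-0.88 to -0.58]. MRPL17 had a ratio of -0.68 [-0.83 to -0.54], MRPL55 -0.64 [-0.84 to -0.43], MRPS34 -0.64 [-0.77 to -0.51] and MRPL51 -0.55 [-0.71 to -0.39]. On the other side MRPL1 stood at 35.3, 45.6, 25.7 and 36.6 CPM, with a log2 ratio of 0.37 [0.20 to 0.54], MRPS10 had 0.32 [0.23 to 0.42] and MRPL57 0.25 [0.14 to 0.37]. In all, 31 members were lower with an interval that excluded 1 and 7 were higher, against 23.1% and 22% of all genes tested. Over the members the ratio in sh-Bcl2 ran with the GC content of the transcript, with a Spearman correlation of -0.42 (77 genes), against -0.28 over all genes; in sh-c-Myc it was -0.23 and 0.01. With a trend on GC content and length over all genes removed, the median of the members minus that of all genes went from -0.09 to -0.05 in sh-Bcl2 and from -0.62 to -0.59 in sh-c-Myc.

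With both hairpins, most members stood between control cells and cells with the c-Myc hairpin alone. In the double knockdown against shControl 69 of 77 were below 1, 54 with an interval that excluded 1, and 1 was above it likewise (33.2% and 29.4% of all genes tested), and the median log2 ratio was -0.40 for the members and -0.01 for all genes. The 2-fold rule called 12 lower and 1 higher, against 5.99% and 7.11% of all genes. For 62 of 77 members the level of the double knockdown lay between those of shControl and sh-c-Myc, against 53.9% of all genes tested. Called lower were MRPL24, MRPS26, MRPL46, MRPL12, MRPS34, MRPL4, MRPS2, MRPL14, MRPL55, MRPL17, MRPL36 and MRPS12. They ranged from MRPL24, 3.003-fold [2.64 to 3.43] lower, to MRPS12, 2.06-fold [1.900 to 2.23] lower. Of them 10 were also called in sh-c-Myc (83.3% of the 12 and 47.6% of the 21), in comparisons that share shControl.

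A pair of the 12 had another pattern over the libraries. MRPL55 stood at 34.6, 22.3, 22.4 and 16.4 CPM, with either hairpin at about the same level and both together lowest, 2.105-fold [1.81 to 2.46] below shControl. MRPL46 was low in the 2 libraries with the Bcl-2 hairpin, as given above. MRPL52, with a large-subunit symbol, stood at 39.3, 33.5, 29.9 and 23.3 CPM and was likewise lowest with both hairpins, at -0.75 [-0.95 to -0.56]. The 1 gene called higher was MRPL53, at 1.56, 2.44, 1.796 and 3.97 CPM on 22, 37, 28 and 62 counts, 2.51-fold [1.54 to 4.34] higher in the double knockdown; 45.2% of its exonic bases lie in another gene.

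Set against sh-c-Myc, the double knockdown held more RNA of most members. The median log2 ratio was 0.26 for the members and 0.03 for all genes, and 66 of 77 were above 1, 49 with an interval that excluded 1, and 5 were below it likewise (31.5% and 22.6% of all genes tested). The 2-fold rule called 1 higher, MRPL53, 2.19-fold [1.39 to 3.58] higher, and 0 lower; 1.66% of all genes were higher and 4.7% lower. MRPS17 was next, at 0.73 [0.20 to 1.28] on 48 and 80 counts, then MRPL3 at 0.72 [0.59 to 0.84], followed by MRPL58 at 0.57 [0.29 to 0.86], MRPS35 at 0.57 [0.43 to 0.71] and MRPS10 at 0.56 [0.45 to 0.67]. MRPS10 thereby stood at 109, 136, 72.9 and 107 CPM, with the double knockdown at the level of shControl. On the other side MRPL55 had -0.44 [-0.68 to -0.21] and MRPL52 -0.36 [-0.56 to -0.16]. With total-count scaling the median of the members was 0.16, on a median of -0.07 for all genes.

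The Bcl-2 hairpin was set against cells without it in both backgrounds. The ratio without the c-Myc hairpin (sh-Bcl2 against shControl) and the ratio with it (double knockdown against sh-c-Myc) share no library. They had opposite signs in 42 of 77 members (54.5%), against 44.9% of all genes tested, with a Pearson correlation of 0.34 and a Spearman correlation of 0.23 (0.05 by Pearson over all genes). The departure from additivity, the log2 ratio to shControl with both hairpins minus those with each alone, was above 0 with an interval that excluded 0 for 49 of 77 members and below 0 for none, against 29.2% and 18.8% of all genes tested. Its median was 0.33 for the members and 0.05 for all genes. The 83 genes of the cytosolic ribosome had a median of 0.51, with 72 above 0 by the same rule (86.7%), and the 12 proliferation genes described next had 0.84, with all 12 above 0. The largest departures were 1.17 [0.89 to 1.46] for MRPL24, 1.05 [0.81 to 1.28] for MRPL17, 1.04 [0.71 to 1.38] for MRPL48, 0.98 [0.66 to 1.30] for MRPL22 and 0.89 [0.67 to 1.10] for MRPS34. In each of these genes the sum of the single hairpins lay further below shControl than the double knockdown did. The lowest departures were -0.98 [-2.01 to 0.05] for MRPL38, -0.76 [-1.99 to 0.47] for MRPS28, -0.38 [-1.13 to 0.37] for MRPS18C, -0.13 [-0.38 to 0.12] for MRPS14 and -0.13 [-0.39 to 0.13] for MRPL52. This departure rests on 1 library for each term and was not tested against the spread between cultures. By the CPM given above, MYC RNA was itself below shControl with the Bcl-2 hairpin alone. It was higher with both hairpins than with the c-Myc hairpin alone. The part of these MYC levels in the departure was not tested.

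In sh-c-Myc, where most members were lower, proliferation genes were lower too and monocyte genes were higher. A list of 12 proliferation genes summed to 4832, 4982, 1897 and 3332 CPM, with 10 called lower in sh-c-Myc (median -1.56) and 0 in the double knockdown (median -0.70), and all 12 had counts in every library. A list of 12 genes of monocyte maturation summed to 273, 403, 975 and 1015 CPM; CD68 and VCAN had no count in shControl or sh-Bcl2, and VCAN had none in sh-c-Myc. Of its 9 tested genes 7 were called higher in sh-c-Myc (median 2.19) and 7 in the double knockdown (median 2.66). With the double knockdown set against sh-c-Myc, where the members had a median of 0.26, the proliferation genes had 0.85 and the monocyte genes -0.23. Their part in the result for the mitochondrial ribosomal protein genes was not tested.

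Other genes of mitochondrial translation lay in the same range. Of 5 further ribosomal subunits that carry other symbols 3 were called lower in sh-c-Myc, and the edgeR fit called 3 lower. GADD45GIP1, at the tunnel exit, stood at 88.8, 114, 41.9 and 61.2 CPM, with a log2 ratio of -1.08 [-1.22 to -0.94]. AURKAIP1 stood at 111, 73.1, 53.7 and 59.4 CPM and CHCHD1 at 56.9, 43.9, 27.96 and 34.9 CPM, with ratios of -1.04 and -1.02. DAP3, the GTP-binding small-subunit protein, and PTCD3 had -0.56 and -0.33 and were not called.

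Assembly factors and RNA-modifying enzymes were called lower in 6 of 28 cases and higher in 1, with a median of -0.59 in sh-c-Myc. The edgeR fit called 11 lower and 1 higher. The ribosomal RNA methyltransferases MRM1 and MRM3 had log2 ratios of -1.75 [-2.20 to -1.33] and -1.53 [-1.85 to -1.22], and the pseudouridine synthase TRUB2 -1.31 [-1.49 to -1.14]. MTG1, a GTPase of large-subunit assembly, was the 1 called higher, at 8.59, 8.85, 19.2 and 12.3 CPM and 1.16 [0.85 to 1.48]. Of 18 translation factors and regulators 4 were called lower and 0 higher, with a median of -0.59, and the edgeR fit called 8 lower. They were PDF, the mitochondrial peptide deformylase, at -1.58, SLIRP at -1.20, and the elongation factors TSFM at -1.08 and TUFM at -1.02. For comparison, 83 genes of the cytosolic ribosome had a median of -0.81 in sh-c-Myc, with 25 called lower. The mitochondrial ribosomal RNAs themselves were not analysed here.

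Genes that start beside a member on the other strand had ratios of both signs. Within 1000 bases of the start of a member, 26 tested pairs had a gene that starts on the opposite strand. In sh-c-Myc the median log2 ratio was -0.78 for the member and 0.16 for the neighbour, the signs were the same in 13 pairs, and the Pearson correlation over the 26 pairs was 0.07. MRPS34 was at -1.42 while EME2, a subunit of a DNA repair nuclease whose start lies 52 bases away, was at 0.28. MRPL47 was at -0.71 while NDUFB5, a complex I subunit whose start lies 36 bases away, was at 0.27. Other pairs were lower on both sides. MRPL36 was at -1.11 and the complex I subunit NDUFS6, 34 bases away, at -0.84, and MRPL18 was at -0.82 and the chaperonin subunit TCP1, 63 bases away, at -1.19. In MRPL43 and MRPL57 the neighbour was the lower one, with TWNK, the helicase that copies mitochondrial DNA, at -1.99 and SKA3, a kinetochore protein, at -1.98. In some pairs, such as MRPL43 with TWNK and MRPL51 with NCAPD2, the 2 genes share exonic bases. With any other gene counted, 36.9% of the exonic bases of MRPL43 and 31.3% of those of MRPL51 are shared. The part of shared bases in these ratios was not tested.

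**Figure D5:**
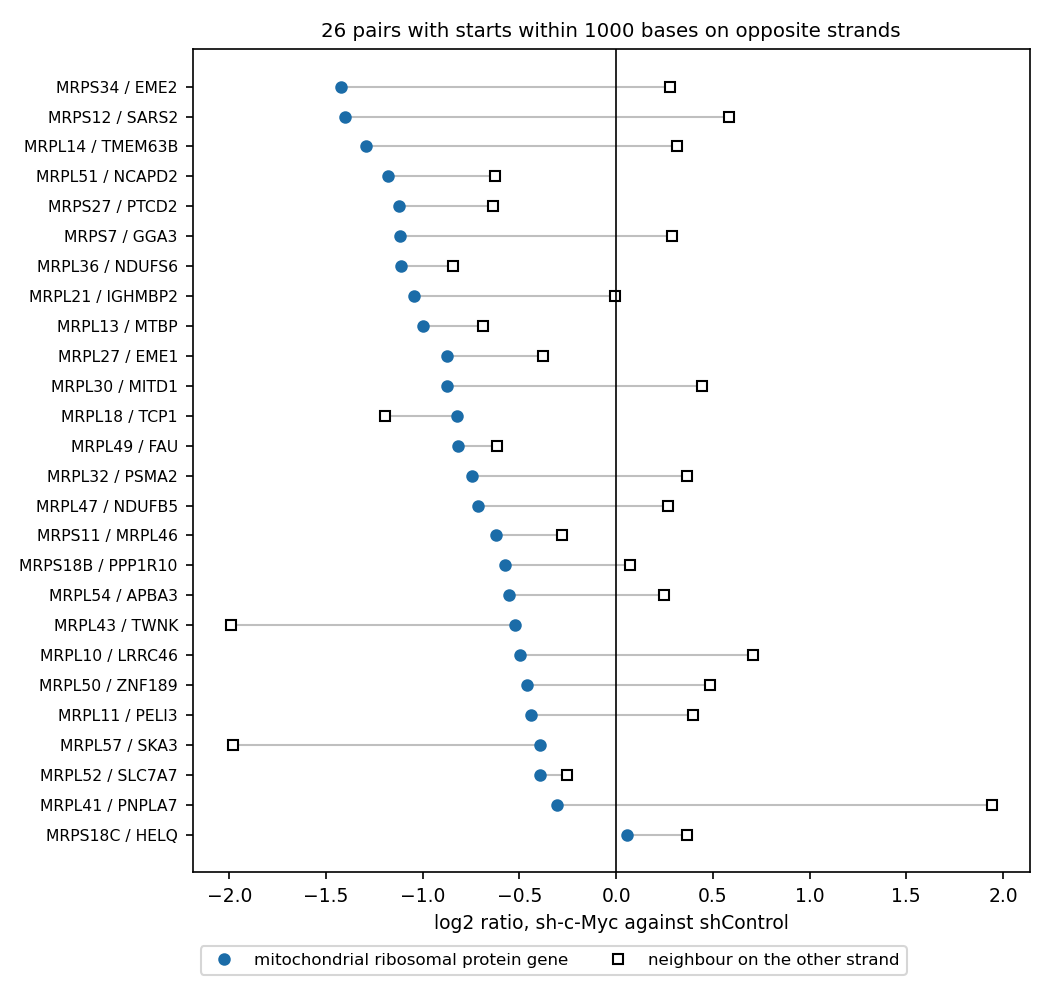
Log2 ratio in sh-c-Myc against shControl for 26 pairs of a mitochondrial ribosomal protein gene (filled circle) and a gene that starts within 1000 bases on the opposite strand (open square), joined by a line. The median is -0.78 for the circles and 0.16 for the squares.

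Of the 78 members 69 had a promoter window in the RefSeq table, from 250 bases before to 50 after the start (first listed start of a gene); MRPL2, MRPL10, MRPL13, MRPL15, MRPL21, MRPL23, MRPL35, MRPS28 and MRPS36 had none. The 3 motifs were searched on both strands. The ETS motif CCGGAAG was in 29 windows (42.0%), against 20.4% of 9176 windows of protein-coding genes tested and 10.7% of 27305 windows in the table. The YY1 motif AAGATGGC was in 20 (28.99%), against 5.68% and 3.03%. The E-box CACGTG was in 6 (8.70%), against 10.3% and 7.43%. No motif overlap was removed, and a match is a description of letters.

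In sh-c-Myc the median log2 ratio was -0.58 for members with and -0.63 for members without an ETS motif, and the medians for the YY1 motif had the same values. The 6 members with an E-box had a median of -1.06 and 4 of them were called lower, against -0.61 and 15 of 62 called for those without. Over all genes tested that had a window, 150 of 981 with an E-box were called lower (median -0.16). Without an E-box 853 of 8559 were (median -0.08). These differences were not tested. The 4 members called were MRPL45, MRPL22, MRPL36 and MRPL37. The other 2 were MRPL49, at -0.82, and MRPS18C, at 0.06, whose sequence printed above holds an E-box at nearly the same distance as that of MRPL22. MRPL3, MRPL58 and MRPS22, printed above with ETS motifs, had log2 ratios of -1.46, -1.16 and -0.04.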

How the data were processed

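RNA-seq of 4 MOLM-13 libraries, 1 per group by the labels, was used. The authors deposited read counts and FPKM per gene; per the submitters' processing notes, reads were aligned to GRCh38 with HISAT2 and counted with HTSeq 0.13.5. The sources used here do not give HISAT2's version, the annotation release or the strand setting. Counts of overlapping genes and of genes with pseudogene copies are therefore uncertain. The file headers name the deposited values FPKM only, and they were taken as per length of gene and library size. Counts divided by them and by the library total gave lengths whole to within 0.01 base in 100% of the values above 0.

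From the counts, log2 ratios (TMM factors 0.950, 0.965, 1.08 and 1.01; prior count 0.5) were computed. Their 95% intervals are exact conditional binomial ones and hold counting error only. The reads carry no molecular identifiers. The 2 by 2 layout was fitted with edgeR 4.0.16 (quasi-likelihood, TMM, at least 1 CPM in at least 2 libraries, common dispersion 0.0211), with DESeq2 1.42.0 and limma 3.58.1 as alternatives. Adjustment was over the genes kept for a fit, not over all genes of the table, and unadjusted p-values are named as such. The fit was also run on simulated counts with the dispersion estimated from these libraries, and the intervals on counts with counting error only. Neither simulation can check the spread between cultures, which was not measured, or non-additivity, which was not simulated. Gene positions and exons come from GENCODE 29, which holds all 24940 identifiers, and promoter windows from RefSeq. Scripts ran under R 4.3.3 and Python 3.11.15.

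The members and gene lists were chosen with earlier results of these data known. Genes named are members called in any of 5 comparisons, up to 10 each way by conservative fold (the interval end nearest 1), the 5 highest and 5 lowest by FPKM, the MRPS18 paralogs, the 5 largest departures per direction, and up to 5 per other list; MRPL10, MRPL11, MRPL13, MRPL23, MRPL33, MRPL52, MRPS17 and the pairs and E-box genes were named after their values were seen where that rule does not hold them. Alternatives changed the scaling, filter, fold, unit (FPKM), background, GC and length trend, overlapping members and tool.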

Additional observations from a re-analysis of the deposited data

Results flagged for a closer look

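For the Bcl-2 hairpin the median of the 77 tested members had the opposite sign without and with the c-Myc hairpin. It was -0.09 where sh-Bcl2 was set against shControl and 0.26 where the double knockdown was set against sh-c-Myc. This is a difference of 0.35 on the log2 scale. Over all genes tested these medians were 0.00 and 0.03. The -0.09 is small, with 47 members below 1 and 30 above, and it was -0.04 with upper quartile factors. Each median rests on 1 library per group, so the difference was not tested against the spread between cultures.

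For 18 of the 77 members both ratios had intervals that excluded 1 and opposite signs, and in all 18 the ratio was below 1 without and above 1 with the c-Myc hairpin. That is 23.4% of the members; of all genes tested 6.86% were below and then above 1 by this rule and 3.69% above and then below. The differences were 1.05 for MRPL17, 1.04 for MRPL48, 0.98 for MRPL22, 0.89 for MRPS34, 0.87 for MRPL27, 0.79 for MRPL54 and 0.75 for MRPL51. They were 0.70 for MRPL13, 0.69 for MRPS12, 0.68 for MRPL14, 0.64 for MRPS18B, 0.61 for MRPL49 and 0.55 for MRPL2. They were 0.50 for MRPS27, 0.48 for MRPS16, 0.46 for MRPL37, 0.44 for MRPL18 and 0.43 for MRPL10. None of these differences was tested, for want of replicates. MYC RNA, by the CPM given above, was likewise lower in sh-Bcl2 than in shControl and higher with both hairpins than in sh-c-Myc. Its part in these differences was not tested. MRPL24, which had the largest departure of the tested members, is not among them, since its ratio of 0.19 with the c-Myc hairpin had an interval that included 1.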

How the results depend on the processing

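Of 155 alternative values 122 stayed within the set limits, 33 moved and 0 reversed. The median of the members minus that of all genes kept its sign in all 45 alternatives; it moved once, from -0.62 to -0.82 in sh-c-Myc over the 28 members without shared exonic bases or a listed pseudogene. Counts of calls depended on the fold and the unit. The counts below show only how calls of members move with a setting. Calls among all genes are not given at 1.5-fold, on the FPKM scales, with 50 counts or for the 28. At 1.5-fold 43 were lower for sh-c-Myc, 31 for the double knockdown and 6 for sh-Bcl2, each against shControl; the double knockdown set against sh-c-Myc had 1 lower and 3 higher, and set against sh-Bcl2 14 lower and 1 higher. In sh-c-Myc 13 were lower with total counts, upper quartile factors or log2(FPKM + 0.1), 9 with log2(FPKM + 1) and 10 among the 28. Of all 13646 genes tested 912 were lower with total counts and 919 with upper quartile factors. In the double knockdown against shControl 7 were lower with upper quartile factors (646 of all genes tested) and 7 among the 28. It had 3 lower with FPKM + 1 and 6 with FPKM + 0.1. It had 0 higher with a mean of at least 50 counts, FPKM + 1 or the 28. Against sh-c-Myc it had 1 lower with total counts or upper quartile factors (788 and 770 of all genes tested). There 0 were higher with 50 counts, either FPKM scale or the 28. Against sh-Bcl2 it had 1 lower with FPKM + 1 and among the 28. In sh-Bcl2 0 were lower with 50 counts, either FPKM scale or the 28. Fewer members are counted among the 28, and 50 counts leaves out MRPL46 and MRPL53 by construction; otherwise the cause was not tested. For the c-Myc hairpin DESeq2 called 21 lower where edgeR called 40, and the other fits 33 to 40.

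No paired analysis was possible because each group holds 1 library and all share the same replicate number. Leaving out a library was not possible either, since each is the only one of its group and the 2 by 2 fit would keep 0 residual degrees of freedom. Total counts and upper quartile factors move every ratio alike, by 0.19 and 0.18 in sh-c-Myc. Depth limits the members with few counts: 3 counts, the limit for a count of 0, is above the level of MRPS24 in sh-c-Myc. Shared exons touch 41 members, 13 have a pseudogene in the table, and the spread between cultures was not measured.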
